A study of Mus musculus with 24 samples.

Results

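Total RNA of round spermatids from mice homozygous for a DDX4 knock-in was compared with that of wild-type round spermatids, gene by gene and transcript by transcript. The comparison takes all libraries labelled as RNA of round spermatids with these genotypes, 2 homozygous and 2 wild-type libraries, which are 4 of the 24 libraries of the series. The series concerns a combinatorially tagged knock-in mouse and germ granules that depend on phase separation. Its other RNA libraries are 2 of heterozygous round spermatids, which enter the fits only through the shared estimate of spread and are given beside the results, and 6 labelled CB (3 heterozygous, 3 homozygous; cell type given as germ cells), in which CB is not spelled out. All round spermatid cells came from testes by a digestion in 2 steps, and the labels give no age, strain background or separate animals. P-values therefore measure the spread between these libraries, which may be technical.

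DDX4, also called VASA, is a DEAD-box RNA helicase of the germ line and a constituent of the germ granules in which piRNA factors and messenger RNAs gather. In round spermatids, haploid products of meiosis, these granules merge into a perinuclear body, the chromatoid body. Round spermatids transcribe widely before their chromatin is compacted with protamines, store many messengers for later translation, and begin to build the acrosome and the flagellum. Genes of the X chromosome, silenced during meiosis, are partly transcribed again at this stage.

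The deposited expected counts summed to between 15.3 M and 24.9 M reads per library. Wild-type library 1 stood apart: 19.3% of its counts lay in genes with an average transcript shorter than 1 kb, against 11.3% to 12.7% in the other 5 libraries. The 2 wild-type libraries differed by more than 1.5-fold in 6656 of 17809 genes tested (37.4%), and the 2 homozygous libraries in 2090 (11.7%). For this reason list medians and many of the leading genes are also given without wild-type library 1 or against each wild-type library alone. A fit without wild-type library 1 rests on 1 wild-type library. Calls in it carry no spread between wild-type libraries and are no replication. Levels are counts scaled to a library of 1000000 reads (CPM), and a gene or transcript was called when its adjusted p (edgeR quasi-likelihood test, Benjamini-Hochberg over everything tested) was under 0.05. The labels were set against marker genes: the summed level of 21 round spermatid markers was 6787 to 8142 CPM, while 15 tested Sertoli cell markers summed to 38.9 to 82.9 CPM and 14 tested immune cell markers to 29.4 to 52.7 CPM. In bulk RNA, fewer cells of a type and less RNA per cell cannot be told apart.

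Ddx4 itself, on the knocked-in locus, was read at 443.2 and 521.2 CPM in the wild-type libraries, 406.4 and 402.6 CPM in the heterozygous ones and 120.8 and 129.5 CPM in the homozygous ones. Both homozygous libraries lay far below the other 4, which matches the order of the genotype labels. The log2 change was -1.95 ± 0.12 (SE, adjusted p = 0.00543), and -2.06 without wild-type library 1. Both tested Ddx4 transcripts fell by similar amounts, with log2 changes of -1.79 for ENSMUST00000099166 and -2.11 for ENSMUST00000075748, and neither passed the transcript test with all libraries. ENSMUST00000099166 passed it without wild-type library 1 (log2 change -2.20, adjusted p = 0.0445). The test of unequal change between them gave an adjusted p of 0.844. In the CB libraries Ddx4 averaged 318 CPM in heterozygotes and 284 CPM in homozygotes (adjusted p = 0.649). Of 78 tested genes within 10 Mb of Ddx4, only Ddx4 was called. Among all genes tested 2.86% were called, a share at which few calls fall in 78 genes.

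Across the transcriptome 510 of 17809 genes were called (2.86%), 426 of them higher (2.39%) and 84 lower (0.472%) in homozygotes. The median log2 change was 1.504 among the higher genes and -1.27 among the lower ones, with 348 and 57 genes respectively changed by more than 2-fold. Each of the 510 kept its sign when either wild-type library was left out. Such fits hold 1 wild-type library, so the spread between wild-type libraries does not enter them and their calls are no replication. The number called changed with the libraries in the fit: it was 4927 without wild-type library 1, 8488 without wild-type library 2, 18 and 15 without heterozygous library 1 or 2, and 0 without either homozygous library. Of the 510 genes, 18, 15, 0 and 0 were called in the last 4 of these fits and 15 in a fit of the 4 compared libraries alone, while all 510 kept their sign in each. The 2 fits without a homozygous library (edgeR) had 1932 and 1862 genes at an unadjusted p under 0.05, against 4044 with all libraries, and DESeq2 called 1287 genes with all libraries. The excess of higher over lower calls also moved: DESeq2 gave 825 higher and 462 lower, removal of the length trend gave 1431 and 1017, and without wild-type library 1 the same 17809 genes gave 2463 higher (13.8%) and 2439 lower (13.7%). Groups did not overlap in 9206 genes, or 51.7% of those tested. At the threshold, Vps50 (log2 change -0.92) and Dscaml1 (0.74, adjusted p = 0.0499) lay just inside, and Gm7337 (-0.95, adjusted p = 0.0502) and Tbck (1.33, adjusted p = 0.0504) just outside.

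The named rises started from different levels. Angptl2, which encodes a secreted angiopoietin-like glycoprotein, was read at 0.709 and 0.658 CPM in wild type and at 22.8 and 21.4 CPM in homozygotes. The homozygous libraries lay more than 10 CPM above all others, heterozygotes included at 1.31 and 1.83 CPM, and the log2 change was 5.01 ± 0.24 (SE, adjusted p = 0.00266). Tex101, a GPI-anchored germ cell protein needed for sperm to enter the oviduct, rose from 33.1 and 25.8 CPM to 516.5 and 486.8 CPM (log2 change 4.09 ± 0.17, adjusted p = 0.00204). Heterozygotes stayed at 26.7 and 26.5 CPM, within the wild-type range. BC049730, a gene of the same LY6/uPAR family of small cysteine-rich surface proteins, rose from 9.92 and 8.06 CPM to 173.5 and 157.3 CPM (log2 change 4.20 ± 0.18, adjusted p = 0.00204). Sel1l3, with the repeats of the Sel1 family, rose from 0.491 and 1.36 CPM to 15.6 and 16.5 CPM (log2 change 4.06 ± 0.48, adjusted p = 0.0166). Asprv1, an aspartic protease of skin, Esrrg, an orphan nuclear receptor, Serpina3n, a secreted protease inhibitor, Tpsab1, a mast cell tryptase, Muc6, a secreted mucin, and Slc26a11, an anion exchanger, also rose, each from under 0.5 CPM in both wild-type libraries. Without wild-type library 1 the log2 change was 5.05 for Angptl2, 4.28 for Tex101 and 3.55 for Sel1l3. The named rises were ranked by the smaller of the changes with and without that library. Small shifts among them therefore partly follow from the choice.

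Some rises started from a listed count of 0, so the fold is given against a floor of 3 counts over both wild-type libraries. Fam205a2, of a family of near-identical gene copies, was listed at 0 counts in all wild-type and heterozygous libraries. It had 319 and 234 counts in the homozygous ones, 204-fold above the floor. Gm20671 was listed at 0 in the wild-type libraries, had 1.79 and 2.29 CPM in heterozygotes and reached 91 and 86 counts in homozygotes (65.3-fold above the floor). E330014E10Rik, also listed at 0 in wild type, had 33 and 22 homozygous counts (20.3-fold above the floor). The Fam205a2 value is uncertain and its fold is no bound, because its copies share reads. The 4 tested Fam205a genes were summed on raw library totals, without the normalisation factor (TMM) of the other levels. The sum was 101.9 and 206.9 CPM in wild type, 249.7 and 244 CPM in heterozygotes and 107.2 and 108.3 CPM in homozygotes. The homozygous sums thus lay within the wild-type range. The copy Fam205a3 was listed at 0 in wild-type library 1 and at 110.0 CPM in library 2. The division of reads among copies thus also differed within wild type.

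The 84 lower genes had a median wild-type level of 12.8 CPM, above the 6.85 CPM of the higher genes. Mos, the kinase that drives the MAP kinase pathway in maturing oocytes, was read at 3.71 and 2.39 CPM in wild type and 0.565 and 0.315 CPM in homozygotes (log2 change -2.76 ± 0.42, adjusted p = 0.0309). Pcdha1, a protocadherin, went from 5.07 and 3.82 CPM to 1.03 and 0.315 CPM (log2 change -2.71 ± 0.49, adjusted p = 0.047), and heterozygotes lay between at 2.89 and 2.49 CPM. Idh1, the cytosolic isocitrate dehydrogenase, went from 14.2 and 9.71 CPM to 2.72 and 2.94 CPM (log2 change -2.07 ± 0.24, adjusted p = 0.0157). Its change was -1.78 without wild-type library 1. Etfb, the beta subunit of the flavoprotein that passes electrons from fatty acid oxidation to the respiratory chain, went from 19.1 and 17.2 CPM to 4.93 and 5.24 CPM (log2 change -1.83 ± 0.16, adjusted p = 0.0089). Zfp239, a zinc finger gene, Vmn2r4, a vomeronasal receptor gene, Fam19a4 and 7 genes known by clone names (4930534H03Rik, AC124391.1, 1700082M22Rik, 4933406G16Rik, 4930551O13Rik, Gm12911 and AC165264.1) fell as well, with log2 changes between -1.74 and -2.74. For all 15 named falls the homozygous libraries lay below both wild-type libraries, as in each of the 84 lower genes. A call nearly fixes this, and groups did not overlap in 51.7% of all genes tested.

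**Figure D1:**
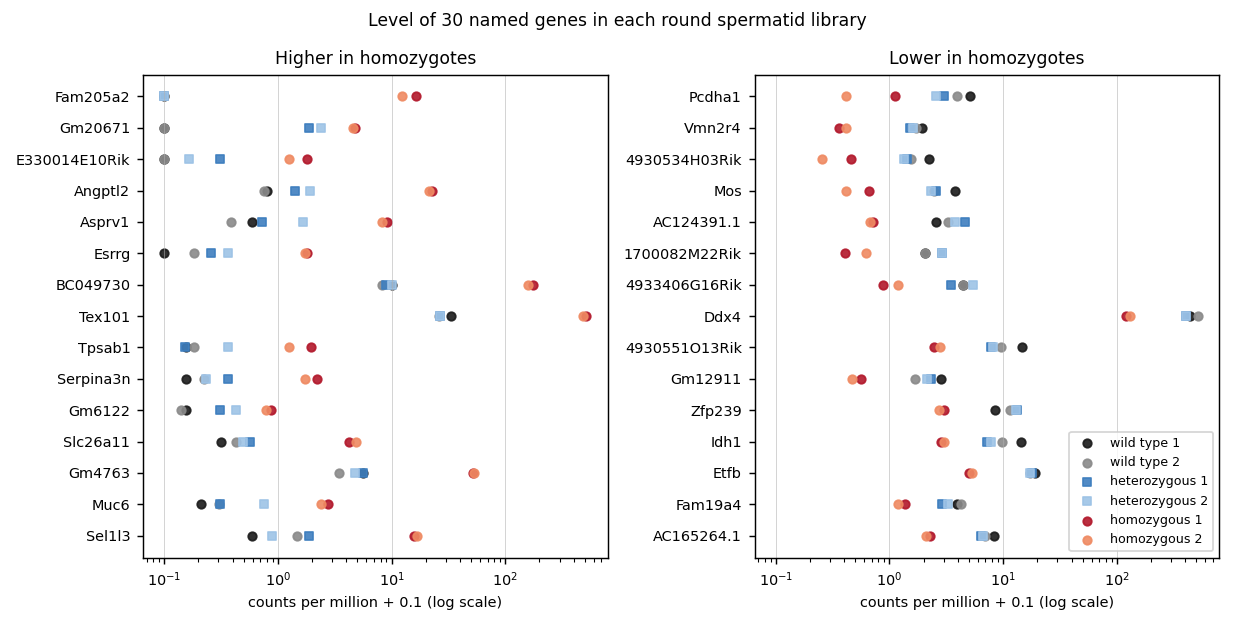
Level of the 15 genes named as higher (left) and the 15 named as lower (right) in each of the 6 round spermatid libraries, as CPM plus 0.1 on a log axis; each point is 1 library. The 2 homozygous points lie apart from the wild-type points in every row, which the choice of called genes nearly fixes. The heterozygous points of Angptl2 and Tex101 lie near the wild-type ones.

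The heterozygous mean was nearer to the wild-type than to the homozygous mean in 403 of the 426 higher and 80 of the 84 lower genes. Among the 374 higher genes with a mean of at least 5 CPM in either group compared, on the log2 scale, it covered a median of 16.4% of the way from wild type to homozygote (quartiles 3.86% and 31.3%), and 15 genes were past 50%. Among 68 such lower genes the median was 12% (-0.148% and 28.1%), and 4 were past 50%. Cd74, the invariant chain of class II antigen presentation, was an exception, with 2.62 and 3.002 CPM in wild type, 7.57 and 7.66 CPM in heterozygotes and 9.10 and 9.54 CPM in homozygotes. Atp6v1d, a subunit of the proton pump of acidic organelles, fell in steps from 136.1 and 97.99 CPM to 70.6 and 67.7 CPM and then to 38.4 and 37.2 CPM.

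Within the called genes, the weight of wild-type library 1 is given as the size of the change against each wild-type library. Genes were called with both libraries in the fit, which favours genes on which the 2 agree. A small weight here therefore partly follows from the choice. For the 426 higher genes the median log2 ratio of the homozygous mean was 1.53 against library 1 alone and 1.41 against library 2 alone, and for the 84 lower genes the median size was 1.27 and 1.20. The wild-type libraries differed by more than 1.5-fold in 57 of the 426 higher and 4 of the 84 lower genes, against 37.4% of all genes tested. Tapbpl, which edits the peptides of class I antigen presentation, was such a gene: 2.40 and 5.26 CPM in wild type, 10.1 and 11.5 CPM in heterozygotes, and 44.5 and 50 CPM in homozygotes. Its log2 change was 3.60 ± 0.36 (adjusted p = 0.0116), and 3.16 without wild-type library 1.

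Outside the called genes, many values moved towards 0 or turned sign when library 1 was left out. Medians moved with transcript length. Genes of 500 bases or less had a median log2 change of -1.14 with both wild-type libraries and -0.0555 without library 1, and none of the 414 tested was called (edgeR, 130 at an unadjusted p under 0.05; 41 by DESeq2). Genes longer than 5 kb had medians of 0.328 and -0.019. The gene of protamine 1, Prm1, which packs sperm chromatin, was read at 6381 CPM in wild-type library 1 and 1307 CPM in library 2, against 1309 and 1207 CPM in homozygotes. Its change of -1.61 (adjusted p = 0.21) became -0.06 without library 1. Rps27, a ribosomal protein gene, was at 120.2 CPM in library 1 and 16.3 CPM in library 2, beside 19.7 and 16.8 CPM in homozygotes, and its change turned from -1.90 to 0.16. 1700027A15Rik likewise turned from -1.84 to 0.29. A fit without library 1 and one without library 2 gave opposite calls for 609 genes and the same call for 2819.

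**Figure D2:**
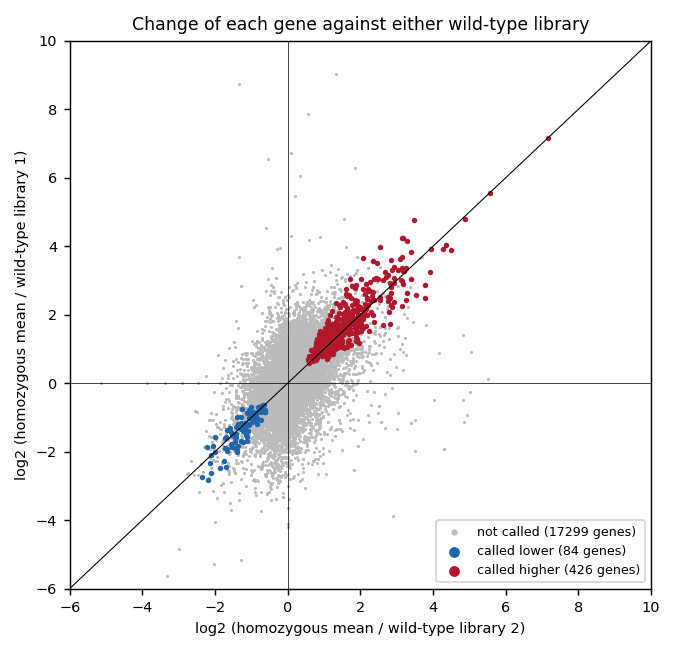
Log2 ratio of the homozygous mean to wild-type library 2 (horizontal) and to wild-type library 1 (vertical) for each of 17809 tested genes, with the 426 genes called higher in red, the 84 called lower in blue and the rest in grey; the diagonal marks equal ratios. The called genes lie along the diagonal on either side of 0, while many grey genes lie off it. Calling with both wild-type libraries in the fit favours genes near the diagonal.

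In the CB libraries, which share no sample with the spermatid comparison, 224 of 19335 genes were higher in homozygotes than in heterozygotes (1.16%) and 108 lower (0.559%). Of the 426 genes higher in spermatids 404 were tested there, and 95 were called higher, none lower, with 378 above 0. Of the 84 lower genes 83 were tested, and 5 were called lower, none higher, with 79 below 0. Slc41a1, a magnesium transporter, went from 4.85 and 8.18 CPM in wild-type to 55.6 and 62.9 CPM in homozygous spermatids (log2 change 3.17 ± 0.27, adjusted p = 0.0089). In the CB libraries it averaged 29.6 CPM in heterozygotes and 96.2 CPM in homozygotes (adjusted p = 7.3e-05). Tex101 averaged 29.3 and 92.2 CPM there (adjusted p = 0.0093) and BC049730 15.1 and 36.2 CPM (adjusted p = 0.00227).

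Some genes called higher lay in short runs along the chromosomes. The longest run held 5 genes on the X chromosome between 4370636 and 5150575 (GRCm38.p6), Btbd35f17, Gm5925, Btbd35f4, Btbd35f27 and Gm14367. The Btbd35f genes, singled out after their values were seen, encode proteins with a BTB domain and lie as many close copies in clusters on the mouse X chromosome. Of 21 listed copies 17 passed the filter on low counts and 11 were called higher, against 2.39% of all genes tested. All 17 had log2 changes above 0, as had 8898 of 17809 genes tested. The changes ran from 1.11 to 3.16 with a median of 1.85. The median was 1.80 to 1.84 under the other scalings and 1.82 without wild-type library 1. Close copies may share reads, so the 17 are not separate observations. All 21 copies summed to 43.0 and 44.8 CPM in wild type, 57.2 and 52.0 CPM in heterozygotes and 160.6 and 161.4 CPM in homozygotes. These sums are scaled to raw library totals, without the normalisation factor (TMM) of the other levels. The homozygous sums lay apart from all others, and they do not depend on how reads were divided among these copies. Btbd35f2 alone went from 10.8 and 10.3 CPM to 37.4 and 40.2 CPM (log2 change 1.88 ± 0.17, adjusted p = 0.0089), and by 1.91 without wild-type library 1. In the CB libraries 11 copies were tested and none was called (edgeR, 6 at an unadjusted p under 0.05; 0 by DESeq2).

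The windows before the annotated starts of 2 called copies are shown because the copies moved together and lie in different clusters. They cover 250 bases on the plus strand, Btbd35f4 at chrX:4800161-4800410 and Btbd35f13 at chrX:33656890-33657139, from RefSeq (GRCm38.p6), written 5′ to 3′, and differ at 3 of 250 bases, which are in capitals.
Btbd35f4: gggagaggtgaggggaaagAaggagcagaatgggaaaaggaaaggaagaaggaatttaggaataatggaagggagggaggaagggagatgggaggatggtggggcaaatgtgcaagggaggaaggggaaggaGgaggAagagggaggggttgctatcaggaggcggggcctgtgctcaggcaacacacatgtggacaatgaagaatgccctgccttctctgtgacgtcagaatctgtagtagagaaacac
Btbd35f13: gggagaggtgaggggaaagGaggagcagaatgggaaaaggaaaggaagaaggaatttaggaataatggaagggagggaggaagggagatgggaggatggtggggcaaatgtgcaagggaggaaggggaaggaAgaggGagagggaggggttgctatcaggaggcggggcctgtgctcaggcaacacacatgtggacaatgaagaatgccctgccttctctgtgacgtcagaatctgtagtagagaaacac
Similar windows did not go with calls throughout, and a link between windows and changes was not tested. Windows were compared position by position without alignment, so a copy with a shifted annotated start cannot be told from an unrelated one. Of the other called copies with a window in the table, Btbd35f21 matched the printed 2 at 33.6% of bases or fewer and Btbd35f6 at 36.8%. The windows of Btbd35f28 and Btbd35f7, which were tested and not called, matched them at 98% to 99.2% and at 97.2% to 97.6%. Both of these genes were near the threshold, with log2 changes of 1.56 (adjusted p = 0.0594) and 1.89 (adjusted p = 0.0819). The called copy Btbd35f17 changed by 1.34.
Both printed windows hold the palindrome TGACGTCA, known as the cAMP response element, near the start. It occurs in 3 of the 9 Btbd35f windows in the table and in 1.55% of all 32851 windows of this length, and in 3.18% of the windows of called higher genes against 2.60% of those of all tested genes.

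On the X chromosome as a whole, 31 of 670 tested genes were higher (4.63%) and 1 was lower. On the autosomes 375 of 15595 were higher (2.40%), with single autosomes between 0.973% and 3.44%. Leaving out the Btbd35f genes, 20 of 653 X genes were higher (3.06%). The median log2 change over X genes was 0.0844 with all libraries and 0.175 without wild-type library 1. Leaving out the Btbd35f genes it was 0.0644 and 0.149, and over autosomal genes 0.0125 and -0.00891. Without wild-type library 2 the median was 0.0491 over X genes and 0.0762 over autosomal genes. Rnf138rt1, an X-linked relative of a ubiquitin ligase gene, went from 23.6 and 21.8 CPM to 75.9 and 84.1 CPM (log2 change 1.82 ± 0.15, adjusted p = 0.0089; 1.87 without library 1). Asb12, an adaptor of ubiquitin ligases, went from 10.8 and 9.79 CPM to 32.2 and 32.5 CPM (log2 change 1.65, adjusted p = 0.0089; 1.72 without library 1). Yipf6, a Golgi membrane protein, Tcp11x2, of a family of testis proteins, Gm595, Maoa, which oxidises monoamines, and Slc6a8, the creatine transporter, rose too. Ppp4r3c-ps was the 1 lower gene, at 17.2 and 18.2 CPM in wild type and 9.92 and 8.23 CPM in homozygotes (log2 change -0.97, adjusted p = 0.0449). The X genes named here were chosen after their values were seen. Of 158 tested Y genes 1 was higher, Zfy2, a zinc finger gene, from 9.32 and 9.21 CPM to 18.3 and 17.7 CPM.

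**Figure D3:**
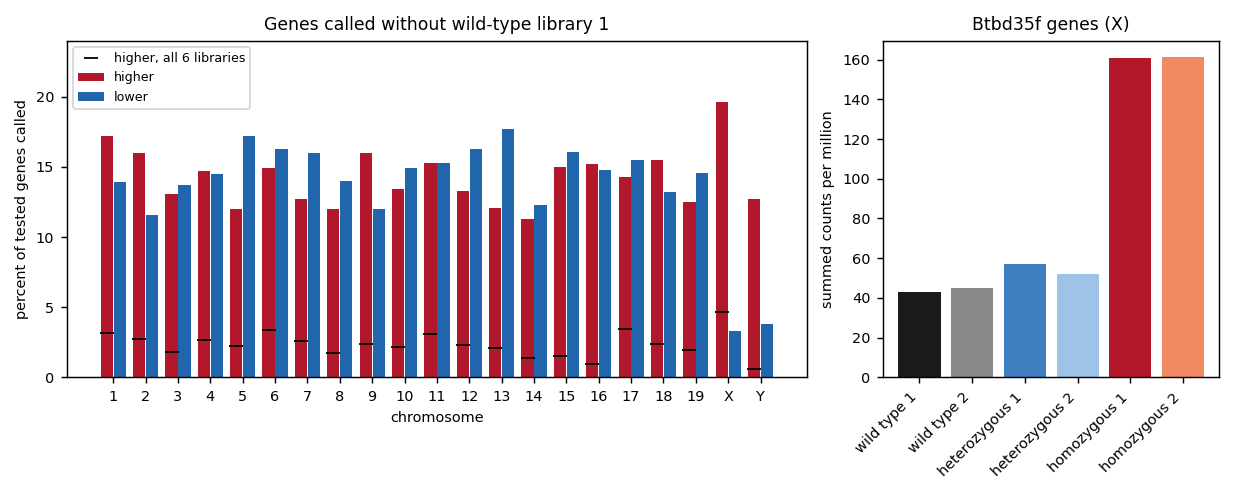
Left, percent of tested genes called on each chromosome without wild-type library 1, higher as red bars and lower as blue bars. Black ticks give the share called higher with all 6 libraries. Right, summed level of the 21 listed Btbd35f copies in each library in CPM, scaled to raw library totals without TMM factors. The bars rest on a fit with 1 wild-type library, and those of the X chromosome include the Btbd35f genes. The Btbd35f sum is above 160 CPM in both homozygous libraries and under 60 CPM in the other 4.

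Tex101 and Gm4763 are neighbours on chromosome 7 among LY6/uPAR genes. Gm4763, listed as Lypd11 in RefSeq, went from 5.45 and 3.37 CPM to 51.8 and 53.3 CPM (log2 change 3.58 ± 0.26, adjusted p = 0.00678; 3.96 without wild-type library 1). Of 19 tested LY6/uPAR genes, a group drawn up after seeing values, 4 were higher, against 2.39% of all genes tested. These were Tex101, BC049730, Gm4763 and Gml. Gml went from 8.61 and 5.18 CPM to 26.9 and 22.8 CPM (log2 change 1.86, and 2.26 without wild-type library 1). Lypd4, at 24864617 on the same chromosome, was read at 696.7 and 732.4 CPM in wild type and at 674.4 and 655.6 CPM in homozygotes and was not called. The windows before the starts of the 2 neighbours are shown because both genes rose by more than 3 on the log2 scale. They cover 250 bases on the minus strand, Tex101 at chr7:24672051-24672300 and Gm4763 at chr7:24726909-24727158 (RefSeq, GRCm38.p6), written 5′ to 3′ along the gene, with the motifs found in capitals.
Tex101: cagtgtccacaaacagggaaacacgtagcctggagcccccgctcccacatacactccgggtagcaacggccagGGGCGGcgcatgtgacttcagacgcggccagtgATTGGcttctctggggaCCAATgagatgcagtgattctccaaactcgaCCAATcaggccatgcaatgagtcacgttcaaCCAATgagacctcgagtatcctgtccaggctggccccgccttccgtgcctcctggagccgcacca
Gm4763: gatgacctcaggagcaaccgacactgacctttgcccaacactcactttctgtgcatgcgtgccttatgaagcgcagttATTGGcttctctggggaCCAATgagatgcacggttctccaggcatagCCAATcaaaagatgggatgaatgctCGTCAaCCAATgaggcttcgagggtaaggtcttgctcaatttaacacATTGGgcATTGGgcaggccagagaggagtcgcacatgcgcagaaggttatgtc
Motifs were searched on both strands: the CCAAT box (CCAAT, read ATTGG on the other strand), the GC box (GGGCGG), the E box (CACGTG), the TATA box (TATAAA), TGACGTCA and its part TGACG. Tex101 had 4 CCAAT boxes and 1 GC box, and Gm4763 had 6 CCAAT boxes and 1 TGACG. The longest stretch shared by both windows was ATTGGcttctctggggaCCAATgagatgca, 30 bases that begin 144 bases before the Tex101 start and 172 before that of Gm4763. At least 4 CCAAT boxes occurred in 0.84% of all windows, in 1.43% of those of tested genes, in 4 of 314 windows of higher genes and in 0 of 53 of lower genes. One or more occurred in 35.6% of windows of tested genes, 35.7% of those of higher genes and 50.9% of those of lower genes.

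The pathway lists follow, each with the number of tested genes and its median log2 change, to be read against the median of -0.000581 over all genes tested. Their counts are to be read against the 2.39% higher and 0.472% lower of all genes, and those without wild-type library 1 against 13.8% and 13.7%. In the list of the chromatoid body and the piRNA pathway, 35 genes were tested, 2 rose and 1, Ddx4, fell, and the median change was -0.00772. Piwil2, a PIWI protein that binds piRNAs, was read at 21.5 and 29.6 CPM in wild type and at 56.9 and 63.0 CPM in homozygotes (log2 change 1.23 ± 0.19, adjusted p = 0.0312). Tdrd1, the tudor domain protein that partners it, went from 16.5 and 21.8 CPM to 40.03 and 44.8 CPM (log2 change 1.15 ± 0.18, adjusted p = 0.0337). Heterozygotes were near wild type for both, at 31.1 and 29.7 CPM for Piwil2 and 24.4 and 25.9 CPM for Tdrd1. The changes were 1.01 and 0.96 without wild-type library 1, and the list then had 4 higher and 14 lower genes and a median of -0.0982. Dazl, an RNA-binding protein of germ cells listed with the spermatogonial markers, went from 42.6 and 44.7 CPM to 77.0 and 74.7 CPM (log2 change 0.80, adjusted p = 0.0337).

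Called genes among sperm structures were 1 of 41 for the acrosome, 1 of 59 for the axoneme and flagellum and 0 of 24 for nuclear compaction, against 2.86% of all genes tested. The acrosome gene that fell was Pla2g10, a secreted phospholipase, from 55.0 and 49.8 CPM to 25.3 and 29.5 CPM (log2 change -0.94 ± 0.16, adjusted p = 0.0435). The acrosome median was -0.314 with all libraries and -0.277 without wild-type library 1, where 24 genes were lower and 4 higher. Spaca1, a membrane protein of the acrosome, had 334.4 and 240.8 CPM in wild type and 156.1 and 163.2 CPM in homozygotes. It was not called with all libraries (adjusted p = 0.0583). The flagellar gene that rose was Rsph3a, a radial spoke protein, from 405.0 and 401.9 CPM to 610.8 and 605.9 CPM (log2 change 0.59 ± 0.09, adjusted p = 0.0337). In the CB libraries Rsph3a was also higher in homozygotes (adjusted p = 0.021). Without library 1 this list had 27 lower and 5 higher genes, and its median moved from -0.0627 to -0.147. None of 24 genes of nuclear compaction was called with all libraries (edgeR, 6 at an unadjusted p under 0.05; 1 by DESeq2). Their median moved from -0.297 to -0.0596 without library 1, where 3 were higher and 7 lower. Lower calls without library 1 were not limited to these lists: among all genes above 100 CPM, 38.9% were then lower and 13.0% higher.

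Metabolic genes changed one by one. In fatty acid oxidation and electron transfer, 3 of 41 tested genes rose and 1, Etfb, fell. Acaa2, the mitochondrial thiolase that ends each round of fatty acid oxidation, went from 2.83 and 2.30 CPM to 9.46 and 9.70 CPM (log2 change 1.90 ± 0.26, adjusted p = 0.0224). Decr2, a peroxisomal reductase, and Acadvl, the dehydrogenase of very long chains, rose by 1.70 and 0.91. The list's median was 0.0349, and -0.129 without wild-type library 1, where 5 genes were higher and 6 lower. Idh1 was the 1 called gene of 31 in the list of the citric acid cycle, whose median was 0.0918 and, without library 1, 0.108. No gene of 27 in cholesterol synthesis was called (edgeR, 3 at an unadjusted p under 0.05; 1 by DESeq2), and the median moved from 0.121 to 0.0325 without library 1. Idi1, the isomerase of isoprenoid units and among the 2 with the largest change, was at 117.6 and 91.9 CPM in wild type and 66.0 and 66.3 CPM in homozygotes (adjusted p = 0.0801). Of 79 nuclear genes of the respiratory chain 1 rose, Uqcrc2, a core subunit of the cytochrome bc1 complex, from 39.5 and 42.0 CPM to 78.7 and 73.0 CPM (log2 change 0.90, adjusted p = 0.0264).

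The ribosomal and respiratory lists moved with wild-type library 1. The 81 cytoplasmic ribosomal protein genes summed to 20350 and 10470 CPM in the wild-type libraries, 10140 and 10810 CPM in the heterozygous ones and 12190 and 11390 CPM in the homozygous ones. Their median change was -0.470 with both wild-type libraries, 0.0932 without library 1 and -0.785 without library 2, so the sign rested on library 1. The respiratory chain list moved from -0.468 to 0.0867 and the 78 genes of the mitochondrial ribosome from -0.200 to 0.153. Rpl10a and Rps3 were called in spite of this. Rpl10a, a protein of the large subunit, went from 28.9 and 19.9 CPM to 159.7 and 142.6 CPM (log2 change 2.63 ± 0.22, adjusted p = 0.0089), with heterozygotes at 32.9 and 37.5 CPM. Rps3, of the small subunit, went from 64.4 and 37.5 CPM to 153.5 and 137.2 CPM (log2 change 1.51 ± 0.27, adjusted p = 0.0447), and by 1.95 without library 1. Both have processed copies in the genome, so their counts are uncertain. Mrps7, of the mitochondrial small subunit, rose by 1.42 (adjusted p = 0.0483).

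Protein turnover showed 1 rise and 1 fall in its core machines. Psma8, the alpha subunit of the proteasome found in spermatogenic cells, went from 29.7 and 24.01 CPM to 58.3 and 56.5 CPM (log2 change 1.10 ± 0.16, adjusted p = 0.0276). It was the 1 called of 36 proteasome genes. Leaving out wild-type library 1, 11 of them were higher and none lower, against 13.8% and 13.7% of all genes in that fit, and their median moved from -0.0849 to 0.170. Atp6v1d (log2 change -1.63 ± 0.18, adjusted p = 0.0147) was the 1 called of 22 genes of the V-ATPase, with medians of 0.113 and, without library 1, 0.110. Among 46 autophagy genes 3 rose: Wipi1, which binds the phospholipid of the forming membrane, from 31.9 and 36.8 CPM to 65.6 and 68.3 CPM, Retreg1, a receptor for the breakdown of endoplasmic reticulum, and Wdr45b. Their log2 changes were 0.96, 0.67 and 0.92, with a list median of 0.174, and 0.102 without library 1. Of 84 chaperone genes Hspa8, the constitutive cytosolic HSP70, rose from 66.9 and 74.1 CPM to 123.1 and 116.1 CPM (log2 change 0.76, adjusted p = 0.0359), and Hspa12b rose by 1.05. The chaperone median was -0.0714, and -0.0509 without library 1, where 14 were higher and 21 lower. Of 39 genes of the unfolded protein response Pdia4, a disulfide isomerase, rose by 1.00 (adjusted p = 0.0222) beside Sel1l3, and the median moved from 0.181 to 0.0321 when library 1 was left out.

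In RNA processing, 3 of 73 spliceosome genes rose. U2af1, which recognises the acceptor splice site, went from 5.67 and 5.59 CPM to 17.9 and 15.5 CPM (log2 change 1.57 ± 0.17, adjusted p = 0.0143), and Prpf3 and Plrg1 rose by 1.51 and 0.94. The spliceosome median was -0.0752, and -0.038 without wild-type library 1, where 10 were higher and 10 lower. Of 73 translation factors 2 rose. Eif4ebp2, a repressor of cap-dependent initiation, went from 12.2 and 18.3 CPM to 35.9 and 39.1 CPM (log2 change 1.29 ± 0.22, adjusted p = 0.0414), and in the CB libraries it averaged 72.0 CPM in heterozygotes and 142.6 CPM in homozygotes (adjusted p = 0.00183). Eif2d, which delivers initiator tRNA, rose by 1.21. The median of the translation factors was 0.00578 and, without library 1, 0.0224, with 15 higher and 17 lower. Among 290 zinc finger genes named Zfp, 4 rose and 6 fell, beside 2.39% and 0.472% over all genes. Their median turned from 0.036 to -0.0637 without library 1, where 30 were higher and 54 lower. Zfp653 went from 37.4 and 33.6 CPM to 83.7 and 84.9 CPM (log2 change 1.25, adjusted p = 0.0135), while Zfp72 went from 24.7 and 21.1 CPM to 7.502 and 6.71 CPM (log2 change -1.69, adjusted p = 0.0117).

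The signalling and membrane lists are read against 2.86% of all genes called. Of 45 tested genes of the JAK-STAT and interferon list 2 rose. Stat6, the transcription factor of interleukin-4 signalling, went from 1.04 and 0.781 CPM to 10.1 and 8.39 CPM (log2 change 3.35 ± 0.25, adjusted p = 0.00796), and Socs5, a suppressor of cytokine signalling, rose by 0.81. The list's median was 0.283, and 0.218 without wild-type library 1, where 9 genes were higher and 7 lower. In antigen presentation, 2 of 24 rose, Tapbpl and Cd74, and the median was 0.212 and, without library 1, 0.313. Arap2 and Psd4, regulators of ARF GTPases, rose among 38 of their list, whose median moved from 0.148 to 0.0338 without library 1. Arap2 went from 5.07 and 6.83 CPM to 29.9 and 36.4 CPM (log2 change 2.47 ± 0.21, adjusted p = 0.0089), and in the CB libraries from a mean of 55.9 CPM in heterozygotes to 114.1 CPM in homozygotes (adjusted p = 0.00191). Of 50 genes of cell polarity and the Hippo pathway Wwc1 and Pard6g rose, by 3.24 and 1.43, with medians of 0.182 and, library 1 left out, 0.128. In Wnt signalling, with 42 tested, the antagonist Dact3 fell from 26.0 and 32.2 CPM to 9.97 and 10.2 CPM (log2 change -1.53 ± 0.17, adjusted p = 0.0148), and the receptor Fzd9 rose by 1.95 (adjusted p = 0.0173). The Wnt median turned from 0.136 to -0.0534 without library 1, where 5 genes were higher and 8 lower. Of 40 kinesin genes Kif26b rose from 0.981 and 1.07 CPM to 10.6 and 11.6 CPM (log2 change 3.42 ± 0.29, adjusted p = 0.0089), and Kif5c by 0.86. The kinesin median of 0.177 also turned, to -0.159 without library 1 with 9 higher and 9 lower, and was 0.498 without library 2. Among 241 solute carriers 9 rose and none fell, with a list median of 0.154, and without library 1 the same list had 33 higher and 31 lower genes and a median of 0.0371. Slc37a2, a sugar phosphate exchanger, went from 2.89 and 2.67 CPM to 23.7 and 24 CPM (log2 change 3.10 ± 0.19, adjusted p = 0.00531).

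**Figure D4:**
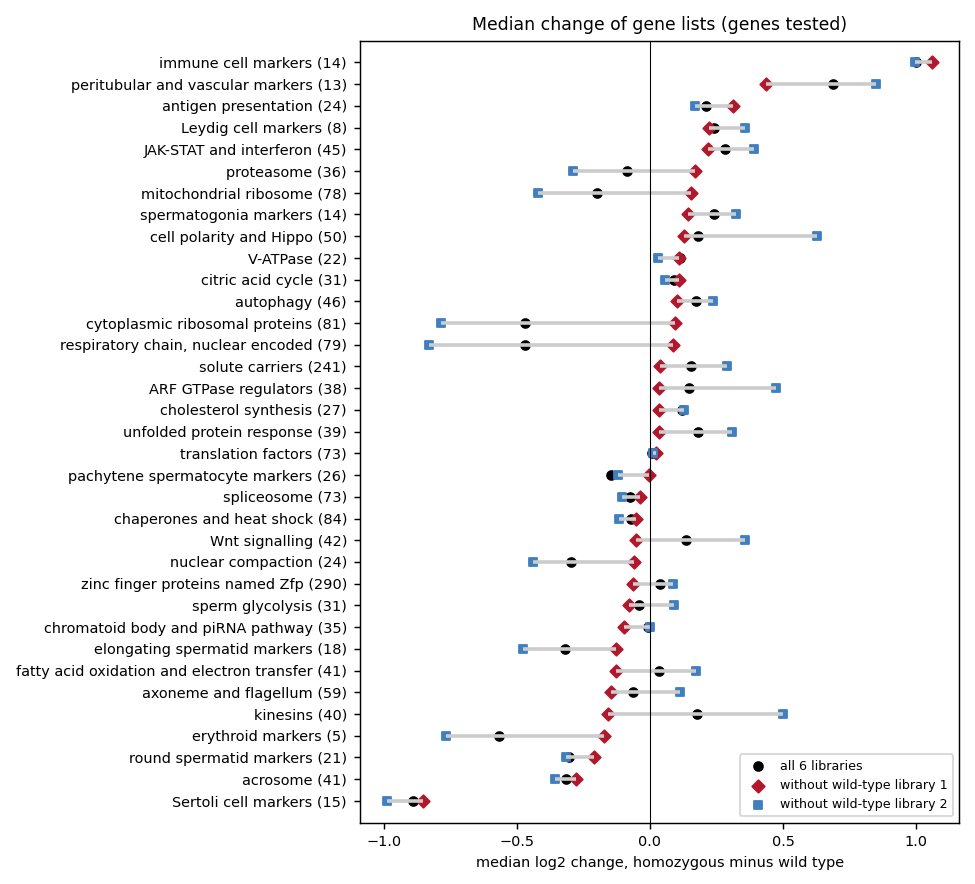
Median log2 change, homozygous minus wild type, of each gene list (number of genes tested in brackets) with all 6 libraries (black circles), without wild-type library 1 (red diamonds) and without wild-type library 2 (blue squares); grey bars join the last 2. The ribosomal and respiratory lists change sign between the 2 settings, while the Sertoli and immune marker lists stay on 1 side of 0.

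Markers of other cell types moved with the genotype as well, in both directions. Of 20 Sertoli cell markers 15 were tested and 2 fell, Clu from 22.9 and 23.1 CPM to 12.6 and 13.1 CPM and Aard from 16.2 and 11.02 CPM to 5.34 and 4.67 CPM. Their sum was 65.6 to 82.9 CPM in wild type, 68.2 to 69.7 CPM in heterozygotes and 38.9 to 40.4 CPM in homozygotes. The defining Sertoli markers Sox9, Amh and Fshr had at most 10 counts in any library, and Fshr had 0 in both homozygous ones. Of 17 immune markers 14 were tested and 2 rose, Cd74 and Lyz2, macrophage lysozyme, from 1.69 and 1.69 CPM to 5.70 and 5.35 CPM. The immune sum was 29.4 to 33.0 CPM in wild type, 44.0 to 44.3 CPM in heterozygotes and 51.5 to 52.7 CPM in homozygotes, and Cd3e and Ms4a1 had at most 9 counts in any library. Peritubular and vascular markers split: Actg2, a smooth muscle actin that made up most of the list's sum, went from 255.0 and 249.0 CPM to 128.1 and 130.1 CPM (log2 change -0.96 ± 0.11, adjusted p = 0.0145), while Dcn and Acta2 rose by 0.96 and 1.53. That list, 13 tested of 15, summed to 287.5 to 290.5 CPM in wild type and 191.1 to 197.8 CPM in homozygotes. Of 12 Leydig markers 8 were tested, and Insl3, a hormone of Leydig cells, rose by 1.55 from 5.50 and 3.45 CPM; the sum was 70.4 to 81.4 CPM in wild type and 93.7 to 94.7 CPM in homozygotes. The 14 tested of 16 spermatogonial markers summed to 128.9 to 131.5 CPM in wild type and 165.9 to 175.5 CPM in homozygotes. Without wild-type library 1 the median log2 change was -0.853 for the Sertoli list (-0.89 with all libraries), 1.06 for the immune list (1.00), 0.435 for the peritubular list (0.687), 0.223 for the Leydig list (0.24) and 0.142 for the spermatogonial list (0.242). The part of these cell types in the changes of Stat6, Tapbpl, Cd74, Piwil2, Tdrd1, Tpsab1 and the other rises was not tested.

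Markers of germ cell stages gave no call (edgeR). Of 26 pachytene, 21 round spermatid and 18 elongating spermatid genes, 10, 10 and 7 had an unadjusted p under 0.05, and DESeq2 called 1, 2 and 1. Their sums were lower in homozygotes: 6787 to 6853 CPM against 7814 to 8142 CPM in wild type for round spermatids, and 3390 to 3424 CPM against 3916 to 4060 CPM for pachytene spermatocytes. Elongating spermatid genes summed to 36000 CPM in wild-type library 1 and 24910 CPM in library 2, beside 23250 and 23290 CPM in homozygotes, so most of that gap came with library 1. In the fit without library 1, 12 of the round spermatid markers were lower and none higher, 8 pachytene markers were higher and 6 lower, and 2 elongating spermatid markers were higher and 9 lower. Lower calls made up 13.7% of all genes in that fit and 38.9% of those above 100 CPM. The median changes moved from -0.304 to -0.212 for round spermatid, from -0.148 to -0.00432 for pachytene and from -0.319 to -0.126 for elongating spermatid markers.

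Taken transcript by transcript, 2 of 36768 transcripts were called (0.00544%), against 4457 at an unadjusted p under 0.05 and 1659 called by DESeq2 (998 higher, 661 lower). Both calls were of genes named above. Tex101 ENSMUST00000078001 went from 28.6 and 24.1 CPM to 525.7 and 490.7 CPM (log2 change 4.27, adjusted p = 0.0291), and the 1 tested transcript of BC049730, ENSMUST00000051714, from 9.75 and 8.09 CPM to 176.6 and 158.8 CPM (log2 change 4.23, adjusted p = 0.0455). Neither call was kept in every setting: without a heterozygous or a homozygous library no transcript was called (edgeR), with 3107 and 3117 and then 2241 and 2306 at an unadjusted p under 0.05. The number called was 9 without wild-type library 1 and 6851 without library 2. The deposited tables carry no estimate of how surely reads were assigned to transcripts, so that error is not in these tests.

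Within the called genes, the transcripts mostly moved the way of their gene. Of 426 higher genes 183 had 1 tested transcript. Of the other 243, all tested transcripts were above 0 in 167 and mixed in 76, the transcript with the largest change held at least 80% of the change in 107, and it was the main wild-type transcript in 181. Of 84 lower genes 47 had 1 tested transcript, and of the other 37 all transcripts were below 0 in 30. Among 61 called members of the pathway and marker lists, the leading transcript moved with its gene in all 61. This is nearly fixed, because the leading transcript is the most abundant one and its counts are part of the gene's. It held at least 80% of the gene's counts in every wild-type and homozygous library in 31. Piwil2, for example, was read as 1 transcript, ENSMUST00000048129, with 99.8% and 99.9% of its counts in wild type and 100% in homozygotes. Tdrd1 was not: its transcript ENSMUST00000078723 held 43.1% and 23.5% in wild type, 83.0% and 60.5% in heterozygotes and 92.0% and 80.8% in homozygotes. That transcript changed by 2.62 on the log2 scale (2.85 without wild-type library 1), above the 1.15 of the gene, but the test of unequal change gave an adjusted p of 0.574. The 3 tested transcripts of Gm4763 changed by 3.62, 3.70 and 3.20. Slc26a11 ENSMUST00000151612 was listed at 0 in both wild-type libraries and held 100% and 91.2% in homozygotes.

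Transcript usage, the division of a gene's reads among its transcripts, was called as changed in 115 of 8658 genes with at least 2 tested transcripts (1.33%), against 1103 at an unadjusted p under 0.05. A transcript's share moved by at least 20 percentage points in 48 of the 115. 7 of the 115 were also called higher and none lower. Of the 115, 57 were called again without wild-type library 1, 108 without library 2, and 56 in both fits. The whole count was 192 without library 1, 2146 without library 2, 26 and 31 without heterozygous library 1 or 2, and 2 and 6 without homozygous library 1 or 2. The limma voom form of the test called 2 genes.

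Keap1, the adaptor that hands the transcription factor Nrf2 to a ubiquitin ligase, was read at 49.6 and 68.8 CPM in wild type and 62.1 and 63.5 CPM in homozygotes, with a log2 change of 0.08 (adjusted p = 0.805), while the shares of its transcripts differed. ENSMUST00000049567 held 76.2% and 24.4% of its counts in wild type, 23.4% and 43.5% in heterozygotes and 0% in both homozygous libraries (usage adjusted p = 0.00946). The share in wild-type library 1 was the highest of the 6, and the usage call held without it (adjusted p = 0.0121). ENSMUST00000194542 held 7.47% and 17.7% in wild type and 38.1% and 38.8% in homozygotes. In Arl14epl, ENSMUST00000234910 held 38.4% and 23.1% in wild type, 16.5% and 11.3% in heterozygotes and 0% in homozygotes (adjusted p = 0.00786).

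In Frmd4a, which encodes a scaffold protein of cell polarity, ENSMUST00000177457 held 37.9% and 22.6% in wild type and 48.0% and 28.9% in heterozygotes and was listed at 0 in homozygotes. ENSMUST00000075767 did the reverse, listed at 0 in the other 4 libraries and with 31.2% and 18.7% in homozygotes (adjusted p = 0.00414). Other calls did not follow the homozygous state. In Usf3, ENSMUST00000119746 held 100% in both wild-type libraries and 0% in the heterozygous and homozygous ones. In Fam198b, ENSMUST00000118853 was at 0% in wild type, 63.6% and 69.2% in heterozygotes and 33.5% and 35.4% in homozygotes (adjusted p = 0.00138). Wdr61, of a complex that works with the RNA exosome, showed 0% in wild type, 41.7% and 21.4% in heterozygotes and 58.5% and 44.4% in homozygotes for ENSMUST00000130368 (adjusted p = 0.00831). A transcript at 0 is an estimate from shared reads and gives no bound on its level.

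**Figure D5:**
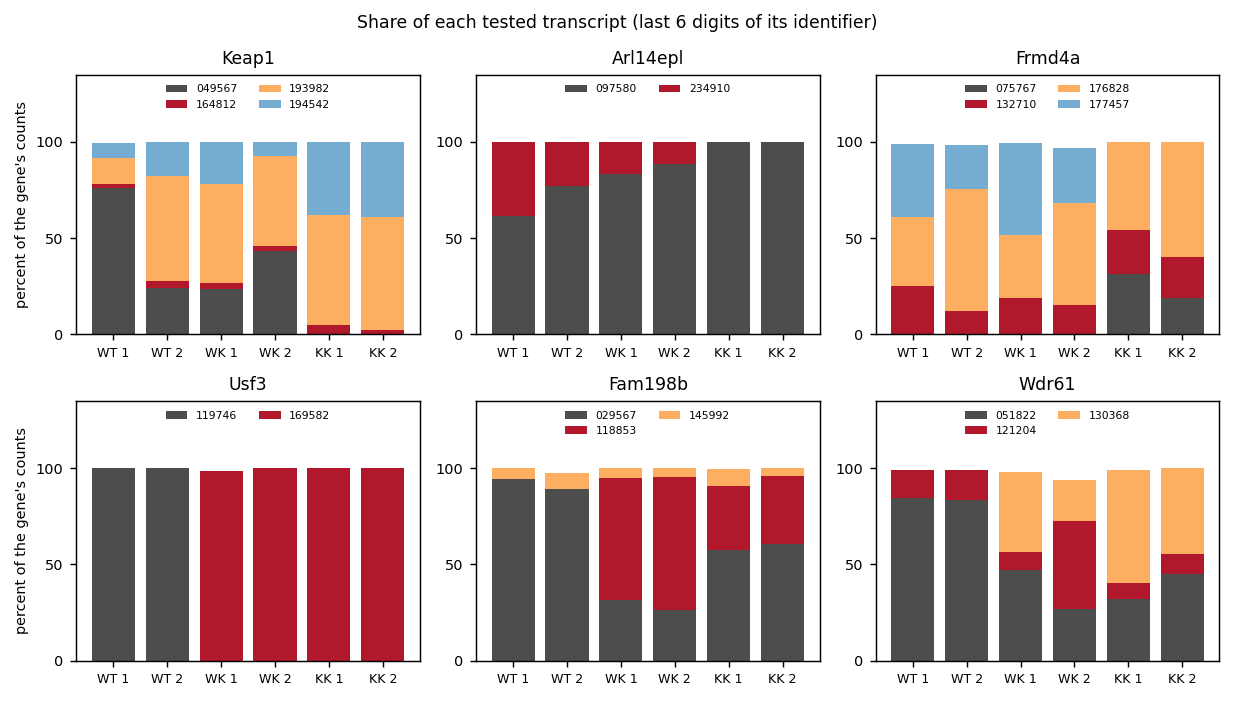
Percent of a gene's counts held by each tested transcript in the 6 libraries (WT wild type, WK heterozygous, KK homozygous) for 6 of the genes with the smallest p for transcript usage. ENSMUST00000049567 of Keap1, ENSMUST00000234910 of Arl14epl and ENSMUST00000177457 of Frmd4a hold 22.6% to 76.2% in wild type and are at 0 in both homozygous libraries, and the heterozygous bars of Usf3 look like the homozygous ones.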

How the data were processed

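RNA of round spermatids was prepared with Trizol and libraries with a NEBNext Ultra kit, per the labels' protocols. The authors deposited, per the file headers, expected counts, TPM (scaled per library and length) and IsoPct (percent of a gene's abundance) per gene and transcript. Reads were trimmed with Trim Galore and the build was mm10, per the submitters' processing notes. The aligner, quantifier and strand setting were not given in the sources used here, so overlapping and antisense genes cannot be told apart. CB libraries were strand-specific, made from less RNA and without poly(A) selection or ribosome depletion, per the labels' protocols, and were tested separately.

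Expected counts were rounded and tested with edgeR 4.0.16 in R 4.3.3 (TMM, filterByExpr by group, quasi-likelihood test, 6 round spermatid libraries in 1 fit, contrast homozygous minus wild type), per gene, per transcript and, with diffSpliceDGE, for transcript usage. TPM and IsoPct were read but no value of theirs is printed; shares were computed from expected counts. Fitted log2 changes use a prior count of 0.125, and ratios to 1 library are of CPM plus 0.1. SE is the absolute log2 change divided by the square root of F. Alternatives were each library left out, only the 4 compared libraries, a replicate block, no filter, upper-quartile scaling, removal of a length trend (lowess, span 0.3), DESeq2 1.42.0 and limma 3.58.1. The scripts were tested on simulated data. Whether replicate numbers pair the libraries is not known. Deviations of same-numbered libraries correlated at 0.108 (wild type with homozygous), -0.129 and -0.0253. Wild-type library 1 stood apart by transcript length, so these values do not settle it. Of 55364 gene identifiers 55104 had a symbol, and 16423 of 17809 tested genes were placed on RefSeq GRCm38.p6.

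Genes named by rule were the 15 higher and 15 lower genes with the largest change that held without each wild-type library, the transcripts so ranked, the 8 usage genes with the smallest p and a share shift of 20 points, up to 6 called members of each list (or the 2 largest changes), the 6 genes above 20 CPM most moved by wild-type library 1, genes with 0 counts in 1 group and at least 50 in the other, and Ddx4. The members and lists were chosen with earlier results of these data known. Small RNA libraries were not used here. A few genes that the rule names are not reported here.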

Additional observations from a re-analysis of the deposited data

How the results depend on the processing

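Counts depended on the libraries in the fit more than on the scaling. Genes called (510) ranged from 0 to 8488 with 1 library left out, transcripts (2) from 0 to 6851, usage genes (115) from 2 to 2146 and CB genes (332) from 51 to 2213. With only the 4 compared libraries 15 genes and 0 transcripts were called. The replicate block gave 182 genes (163 higher, 19 lower), 0 transcripts, 31 usage genes and 163 CB genes. Whether the replicate numbers pair the libraries is not known. Without a filter on low counts the fits gave 1692 genes, 282 transcripts, 28 usage genes and 882 CB genes. Removal of the length trend gave 2448 genes and 12 transcripts, upper-quartile scaling 471 genes (364 higher, 107 lower) and 1 transcript, DESeq2 1287 genes, 1659 transcripts and 598 CB genes, and limma voom 2 usage genes. The cause of these shifts was not tested. Of the 510 genes, 500 were called again with the length trend removed, 505 by DESeq2, 448 with upper-quartile scaling and 181 with the replicate block. Directions reversed without wild-type library 1 for 1700027A15Rik (0.29, and -2.66 without wild-type library 2) and Rps27 (0.16 and -2.71), among 103 named genes. With 2 libraries a side and 3 residual degrees of freedom, genes under about 1 CPM rest on few reads.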
